A study of Mus musculus with 180 samples.

Results

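The adult beta-globin genes Hbb-b1, Hbb-b2 and Beta-s, the alpha-globin genes Hba-a1 and Hba-a2, and 5 regulators of globin genes or of the erythroid lineage (Bcl11a, Klf1, Gata1, Epor and Zbtb7a) were followed in single blood stem and progenitor cells. These 10 genes were chosen on measured values of the same cells, in which globin stood out in fetal liver HSC, so their levels are given as a description without a test. All 10 are among the 14825 genes listed, and 7 of them passed a filter on low values, the exceptions being Hba-a1, Klf1 and Gata1. The unit, TPM, is a level per transcript length that sums to the same total in every cell. A gene was counted as present in a cell from 1 TPM upwards, and it passed the filter if present in 10% or more of the cells in any population.

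The cells were 56 fetal liver HSC (FL HSC), 36 adult bone marrow HSC (BM HSC), 41 wild-type multipotent progenitors (WT-MPP) and 47 CD11b+CD48+SK cells, 180 cells in all, and the question was in which cells globin was measured and whether its level followed the regulators. FL HSC came from Rosa LSL-Hoxb5-EGFP/+ embryos at Day14.5 and were gated on CD150, CD11b, Sca1 and c-kit within lineage-negative CD45.2+ cells, while BM HSC and WT-MPP came from Rosa LSL-Hoxb5-EGFP/+ mice aged 8 weeks. These 3 populations carry a silent Hoxb5 cassette that has not met Cre. The CD11b+CD48+SK cells, where S and K stand for Sca1 and c-kit, were GFP+ donor cells in irradiated recipients 8 weeks after transplantation of MPP from Mx1cre/Rosa LSL-Hoxb5-EGFP/+ mice, in which pIpC switches on Hoxb5 through the Mx1 promoter. All mice were C57BL/6. The labels tie no cell to an animal. Each population therefore counts as 1 sample, the spread given is between cells, and population, age, tissue and collection cannot be told apart. The source label reads bone marrow for every cell, and FL HSC are called so from their cell type label.

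Haemoglobin is built from 2 alpha-type and 2 beta-type chains around haem, and its genes lie in separate alpha and beta clusters. In the mouse, embryonic globins such as Hbb-y, Hbb-bh1 and Hba-x serve primitive red cells, and the adult genes serve the definitive red cells that first form in the fetal liver. Gata1 and Klf1 are transcription factors that activate erythroid genes, globins among them, and Epor is the receptor for erythropoietin. Bcl11a and Zbtb7a are repressors best known for silencing embryonic and fetal globin genes.

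Beta-globin was in every FL HSC and alpha-globin in few, so the proximal promoters of adult globin genes are shown side by side. Each stretch is the 120 bases before the start of the gene in RefSeq on GRCm38.p6, written 5′ to 3′, and capitals mark the motifs searched on either strand. The first is Hbb-bs, of which Beta-s is an older symbol, at chr7:103827929-103828048 on the minus strand. The next are Hbb-bt at chr7:103813924-103814043 on the minus strand and Hba-a1 at chr11:32283552-32283671 on the plus strand.
Hbb-bs: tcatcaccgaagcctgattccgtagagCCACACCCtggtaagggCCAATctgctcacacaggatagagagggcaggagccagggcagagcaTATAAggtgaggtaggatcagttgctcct
Hbb-bt: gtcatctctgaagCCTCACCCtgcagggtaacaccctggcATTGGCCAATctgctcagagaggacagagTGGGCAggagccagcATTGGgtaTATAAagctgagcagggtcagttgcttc
Hba-a1: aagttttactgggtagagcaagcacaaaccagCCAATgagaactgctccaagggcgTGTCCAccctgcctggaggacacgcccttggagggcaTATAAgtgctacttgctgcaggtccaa

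The CACC box, searched as CCNCNCCC, the kind of site that Klf1 binds, was in both beta-globin stretches and in neither alpha-globin stretch, and 34.6% of 32844 promoter stretches of the same length held it. TATAA was in all 4 adult globin stretches and in 11.8% of all, and CCAAT was in all 4 and in 21.3% of all. TGNCCA, the short motif of Bcl11a, lay at 2 sites in Hbb-bt, 1 of them a palindrome that overlaps CCAAT, and at 1 site in each alpha stretch, and 22.4% of all stretches held it. GATAA (10.5% of all) and ATAAAA (8.31% of all) were in none of the 4. A match only says that these letters are there. The Hba-a2 stretch was the same as that of Hba-a1 over 117 of 117 bases compared at an offset of 3 bases, while Hbb-bs and Hbb-bt were the same at 88 of 119 at an offset of 1 base.

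The transcripts of these genes are alike too. In GENCODE M21, the aligned stretch of the Hbb-bs and Hbb-bt transcripts was the same at 93.0% of positions, and 65.8% of the 50-base words of Hbb-bs were also in Hbb-bt. The Hba-a1 and Hba-a2 transcripts were the same at 99.8% of aligned positions, and 67.5% of the 50-base words of Hba-a1 were also in Hba-a2. Hbb-bs shared no such word with the embryonic Hbb-bh1. The files name beta-globin genes as Hbb-b1, Hbb-b2 and Beta-s, and do not say how reads that fit several of them were divided, so the levels of single copies are uncertain and their sum is used where possible. GENCODE M21 holds no gene named Hbb-b1, Hbb-b2 or Beta-s, and which places Hbb-b1 and Hbb-b2 stand for was not settled. Hbb-bs, Hbb-bt, Hbb-y and Hbb-bh2 under those names were not analysed here. On GRCm38, GENCODE places Hbb-bs at chr7:103826534-103828096, Hba-a1 at chr11:32283511-32284465 and Hba-a2 at chr11:32296489-32297298. It places Bcl11a at chr11:24078056-24174123, Klf1 at chr8:84901928-84905291, Gata1 at chrX:7959260-7978071, Epor at chr9:21958897-21963506 and Zbtb7a at chr10:81135220-81152995.

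All 56 FL HSC held beta-globin. The summed TPM of Hbb-b1, Hbb-b2 and Beta-s was lowest at 12.4, had a median of 3232 and was highest at 16355 over FL HSC, with quartiles of 961 and 7077. In BM HSC the sum was 0 at the lowest and in the median cell and 3442 at the highest, and 16 of 36 cells held it. In WT-MPP it was present in 14 of 41 cells, again with a median of 0, and its highest value was 2699. In the CD11b+CD48+SK cells it was present in 19 of 47 cells, with a median of 0 and a highest value of 1782. The ranges overlapped, but 27 FL HSC lay above the highest BM HSC, 32 above the highest WT-MPP and 37 above the highest CD11b+CD48+SK cell. No adult cell lay above the highest FL HSC.

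**Figure D1:**
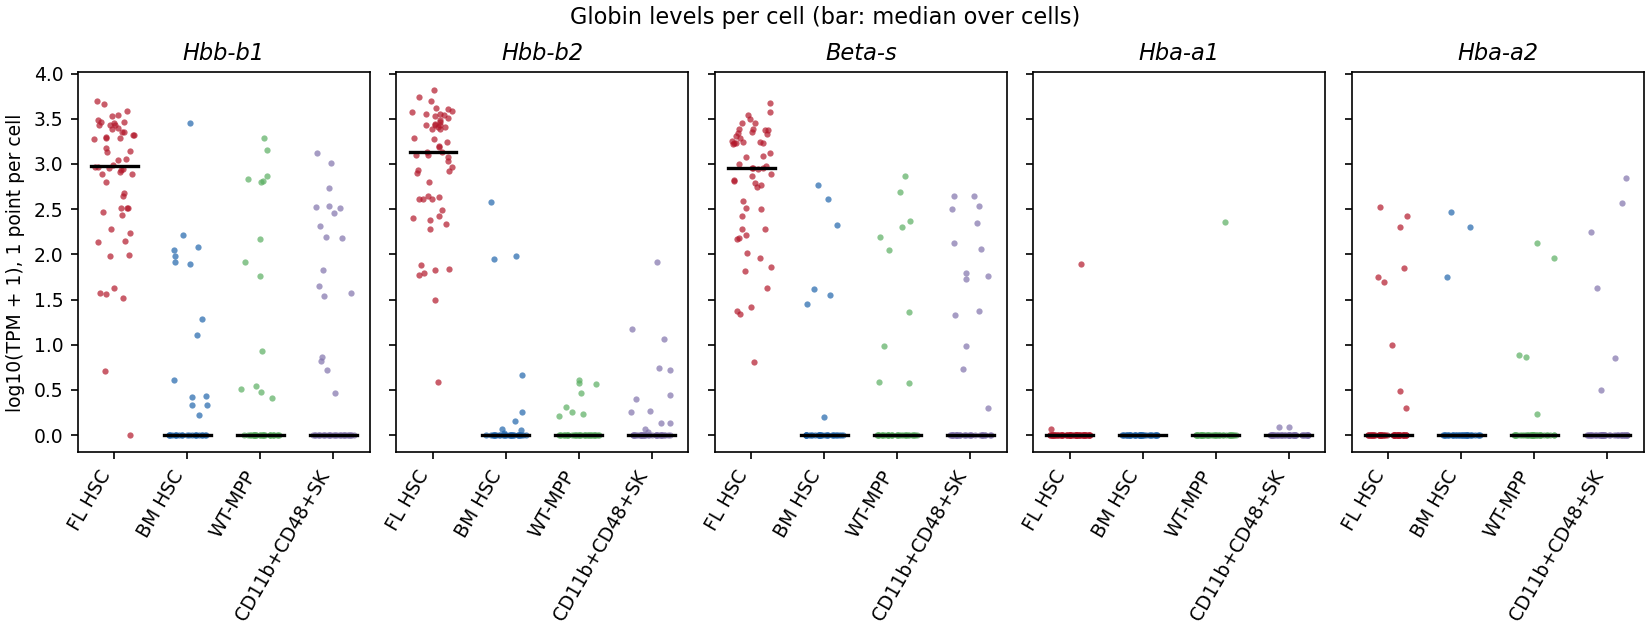
Level of each globin gene, as log10(TPM + 1), in every cell of the 4 populations, with 1 point per cell and a bar at the median over cells. The 3 beta-globin genes lie high in nearly every FL HSC and at 0 in most other cells, and Hba-a1 and Hba-a2 lie at 0 in most cells of every population.

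The share of cells with beta-globin was 100% in FL HSC, 44.4% in BM HSC, 34.1% in WT-MPP and 40.4% in the CD11b+CD48+SK cells. The exact Clopper-Pearson 95% intervals, which cover the counting of cells only, were 93.6 to 100% in FL HSC, 27.9 to 61.9% in BM HSC, 20.1 to 50.6% in WT-MPP and 26.4 to 55.7% in CD11b+CD48+SK cells. The interval of FL HSC lay apart from the others, and those of the other 3 populations overlapped one another. At a summed TPM of 100 or more there were 53 of 56 FL HSC, 8 of 36 BM HSC, 7 of 41 WT-MPP and 10 of 47 CD11b+CD48+SK cells.

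Averaged over cells, the sum was 4472 ± 3977 TPM in FL HSC (SD over cells, n = 56), 150 ± 578 TPM in BM HSC (n = 36), 204 ± 551 TPM in WT-MPP (n = 41) and 154 ± 359 TPM in CD11b+CD48+SK cells (n = 47). The means of FL HSC were 29.7, 21.97 and 29.1 times those of BM HSC, WT-MPP and CD11b+CD48+SK cells. As differences of mean log2(TPM+1), a scale on which cells at 0 weigh heavily, FL HSC were higher by 8.58, 8.86 and 8.32. The 3 other populations lay close together on both scales, and their order changed with the scale, CD11b+CD48+SK cells being highest in mean log2(TPM+1) and WT-MPP in mean TPM. Beta-globin made up a median of 0.323% and at most 1.64% of all TPM of a FL HSC.

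Taken singly, Hbb-b2 was present in 56 FL HSC and ranged from 2.86 to 6651 TPM with a median of 1350. Beta-s was present in 56 FL HSC and ranged from 5.41 to 4749 TPM with a median of 904. Hbb-b1 was present in 55 of 56 and ranged from 0 to 4955 TPM with a median of 957. By mean TPM in FL HSC, Hbb-b2 was the 58th of the 14825 genes, Hbb-b1 the 83rd and Beta-s the 98th. In the difference of mean log2(TPM+1) between FL HSC and each of the other populations, Hbb-b2 ranked 1 of 10856 genes all 3 times. Beta-s ranked 2 against WT-MPP, 2 against BM HSC and 4 against CD11b+CD48+SK cells, and Hbb-b1 ranked 3, 3 and 8. These ranks describe the pattern for which the genes were chosen.

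The make-up of beta-globin by gene name differed between FL HSC and the adult cells. Whether the names Hbb-b1, Hbb-b2 and Beta-s stand for separate genes in these mice was not settled. Among cells with a sum of 10 TPM or more, Hbb-b2 made up a median of 40.6% of the sum in 56 FL HSC, with quartiles of 38.8% and 42.1%. In 10 WT-MPP its median share was 0.111% and its highest 0.934%, in 11 BM HSC its median was 0.148%, and in 16 CD11b+CD48+SK cells 0.172%. Of these 37 cells from adult mice, 30 had under 1% of their beta-globin as Hbb-b2, and 5 had over 20%, with no WT-MPP among the 5. In FL HSC, 54 of 56 cells had over 30% as Hbb-b2 and none was under 1%. The 3 BM HSC with a high share held 93.7, 135 and 378 TPM of beta-globin, within the range of the other BM HSC, and the 2 CD11b+CD48+SK cells held 17.99 and 95.3 TPM.

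In the median cell of each adult population Hbb-b1 made up most of the beta-globin. Its median share was 31.7% in FL HSC against 72.4% in BM HSC, 79.6% in WT-MPP and 70.5% in CD11b+CD48+SK cells. Beta-s differed less, with median shares of 27.5% in FL HSC, 16.96% in BM HSC, 20.3% in WT-MPP and 26.5% in CD11b+CD48+SK cells. The size of the gap between FL HSC and WT-MPP depended on the gene name. The ratio of mean TPM was 9.19 for Hbb-b1, 25.9 for Beta-s and 5385 for Hbb-b2, whose mean in WT-MPP was 0.335 TPM. The sequence that Hbb-b1, Hbb-b2 and Beta-s share was not measured, and whether these shares come from the genes or from how reads were divided was not tested.

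**Figure D2:**
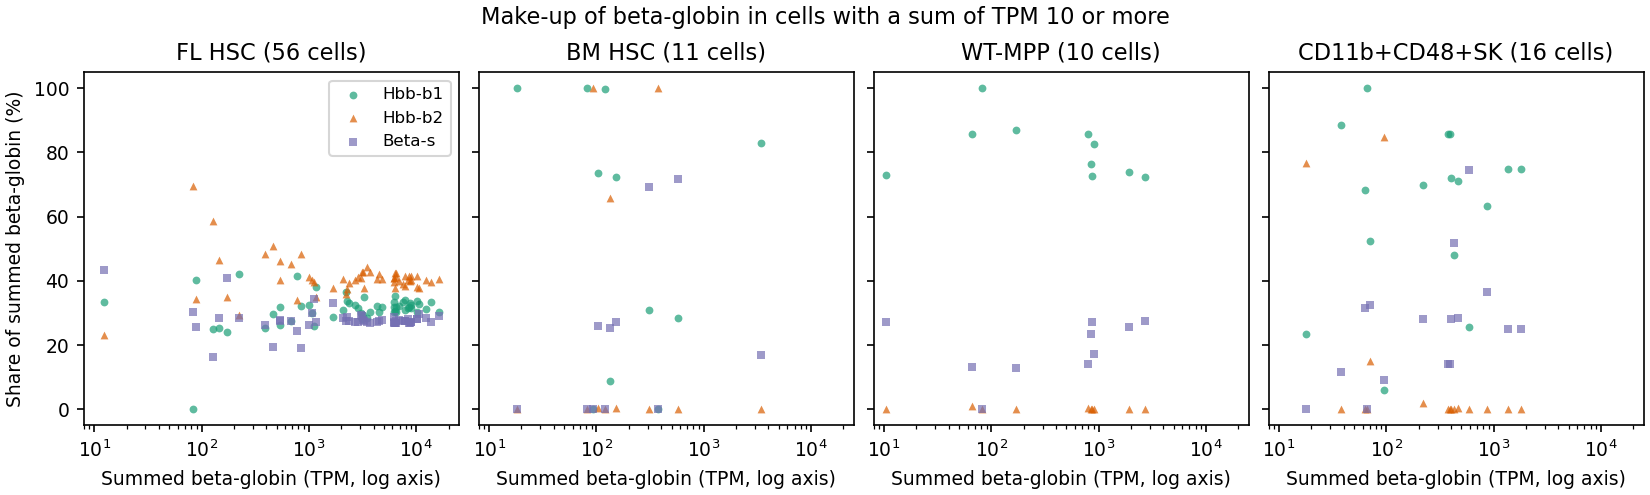
Share of the summed beta-globin (%) taken by Hbb-b1, Hbb-b2 and Beta-s against that sum (TPM, log axis) in each cell with a sum of 10 TPM or more, with 1 panel per population. Hbb-b2 lies near its median of 40.6% in FL HSC and near 0 in all 10 WT-MPP and in most of the BM HSC and CD11b+CD48+SK cells.

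Within FL HSC the levels under the 3 beta-globin names went together from cell to cell. Spearman's rho over the 56 cells was 0.990 for Hbb-b1 with Hbb-b2, 0.993 for Hbb-b1 with Beta-s and 0.995 for Hbb-b2 with Beta-s. In cells where both genes were at 10 TPM or more, the ratio of Hbb-b2 to Beta-s had a median of 1.47 and that of Hbb-b1 to Beta-s a median of 1.16. The 55 cells with Hbb-b2 and Beta-s at 10 TPM had ratios from 0.853 to 3.59, while the sum itself spanned 12.4 to 16355 TPM. Whether reads were shared among the 3 was not tested, so they are not taken as independent readings.

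Alpha-globin was sparse in the same cells. Hba-a2 was present in 9 of 56 FL HSC, 16.1% (interval 7.62 to 28.3%), with a median of 0 and a highest value of 331 TPM. It was present in 3 of 36 BM HSC (highest 295 TPM), 4 of 41 WT-MPP (highest 131 TPM) and 6 of 47 CD11b+CD48+SK cells (highest 692 TPM). The shares were 8.33% in BM HSC, 9.76% in WT-MPP and 12.8% in CD11b+CD48+SK cells, and the 4 intervals overlapped. Hba-a1 was present in 1 FL HSC at 76.9 TPM and 1 WT-MPP at 229 TPM, and in 0 of 36 BM HSC and 0 of 47 CD11b+CD48+SK cells, which allows shares of up to 8.33% and 6.38%.

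In FL HSC the mean of the 2 alpha-globin genes together was 18.8 ± 62.6 TPM (SD over cells, n = 56), beside 4472 TPM of beta-globin. The FL HSC with the highest beta-globin, cell 55 at 16355 TPM, had 0 TPM of either alpha-globin gene, and so had the next 4 in order. The highest alpha-globin, 331 TPM, was in cell 3, the sixth in beta-globin at 10079 TPM. Cell 36, with only 88.6 TPM of beta-globin, had 199 TPM of Hba-a2. Over the 56 cells the rho of summed alpha-globin with summed beta-globin was -0.04.

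In the 124 cells from adult mice, beta-globin was present in 49, alpha-globin in 13 and both in 7. None of the 4 WT-MPP with alpha-globin held beta-globin, whereas 5 of the 6 CD11b+CD48+SK cells and 2 of the 3 BM HSC with alpha-globin held it. How far the sequence shared by Hba-a1 and Hba-a2 bears on these low levels was not tested.

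The embryonic globins Hbb-bh1 and Hba-x were rare, and Hbb-y was not analysed. Hbb-bh1 was present in 1 of 56 FL HSC at 151 TPM and in no other cell, and Hba-x was present in 1 FL HSC at 1.82 TPM and in no other cell. The theta-type genes Hbq1a and Hbq1b were each present in 1 WT-MPP, at 119 and 3.28 TPM, and in 0 of 56 FL HSC, for which 5.36% is the upper limit.

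Of the regulators, Gata1 and Klf1 were rare in every population. Gata1 was present in 4 of 56 FL HSC, 3 of 36 BM HSC, 0 of 41 WT-MPP and 3 of 47 CD11b+CD48+SK cells. Klf1 was present in 2 FL HSC, 1 BM HSC, 0 WT-MPP and 3 CD11b+CD48+SK cells. In WT-MPP, 0 of 41 cells allows a share of up to 7.32% for either gene. The shares in FL HSC were 7.14% for Gata1 (interval 1.98 to 17.3%) and 3.57% for Klf1 (interval 0.435 to 12.3%), and both intervals overlapped those of the other populations.

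Epor, the erythropoietin receptor, was present in 23 of 56 FL HSC, 41.1% (interval 28.1 to 55.02%). It was present in 7 of 36 BM HSC, 19.4% (8.19 to 36.02%), in 1 of 41 WT-MPP, 2.44% (0.0617 to 12.9%), and in 0 of 47 CD11b+CD48+SK cells, which allows up to 6.38%. The interval of FL HSC overlapped that of BM HSC and lay above those of WT-MPP and CD11b+CD48+SK cells. The level in cells that held it was not lower in BM HSC, with a median of 200 TPM against 92.7 TPM in FL HSC, and the means over all cells were 41.9 TPM in FL HSC and 35.2 TPM in BM HSC.

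Bcl11a was present in most cells of every population. It was present in 49 of 56 FL HSC (median 61.1 TPM, highest 427), 30 of 36 BM HSC (median 36.3 TPM, highest 283), 31 of 41 WT-MPP (median 60.1 TPM, highest 553) and 36 of 47 CD11b+CD48+SK cells (median 48.5 TPM, highest 485). All 4 intervals of the share overlapped. Zbtb7a was present in 26 of 56 FL HSC, 22 of 36 BM HSC, 19 of 41 WT-MPP and 29 of 47 CD11b+CD48+SK cells, with means of 11.6, 22.96, 12.8 and 14.7 TPM, and its intervals overlapped too.

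**Figure D3:**
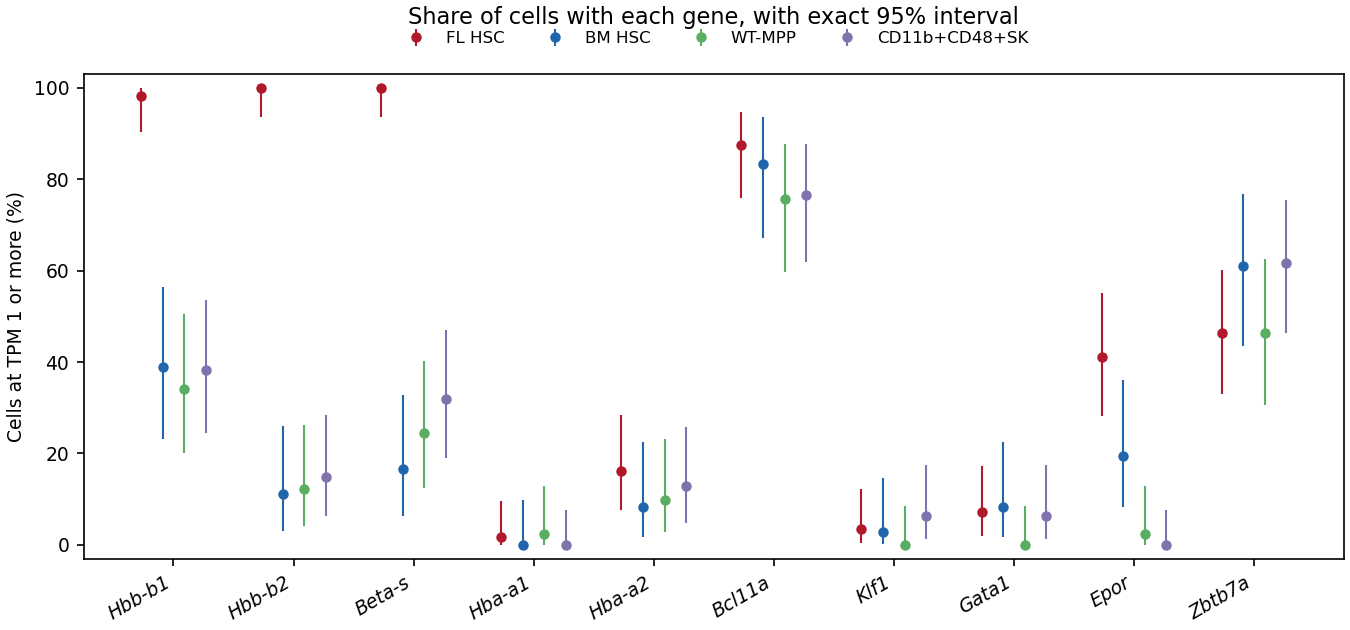
For each of the 10 genes, the percentage of cells in which it was present in the 4 populations, with the exact 95% interval for the counting of cells. The beta-globin genes of FL HSC stand at 98.2% to 100%, apart from every other population, while Hba-a1, Klf1 and Gata1 lie at or below 8.33% in all 4.

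A gene was called where the difference of mean log2(TPM+1) was at least 1 in size, among the 10856 genes that passed the filter. Of the 7 members that passed, Hbb-b1, Hbb-b2, Beta-s and Epor were higher in FL HSC than in each other population, and none was lower. Of all genes, 33.9% were called higher and 3.08% lower in FL HSC than WT-MPP, 25.6% higher and 5.44% lower than BM HSC, and 20.9% higher and 4.02% lower than CD11b+CD48+SK cells. The members were chosen on these contrasts, so nothing is read from their count. The differences of Epor were 2.50 against WT-MPP, 1.34 against BM HSC and 2.73 against CD11b+CD48+SK cells, and the one against BM HSC was 0.24 when log2 was taken of the mean TPM plus 1. With that averaging Hba-a2 was also called higher in FL HSC than WT-MPP, at 1.46.

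The calls over all genes leaned upwards in FL HSC, which had more genes present per cell. The median difference of all genes was 0.56 against WT-MPP, 0.31 against BM HSC and 0.32 against CD11b+CD48+SK cells. When cells were scaled by the median ratio of their genes it was 0.14, 0.05 and 0.22, and the share of calls that were upwards went from 91.7% to 67.2%, from 82.4% to 60.5% and from 83.9% to 78.2%. Against that, the scaled differences of Hbb-b2 were still 8.86, 8.47 and 8.79 and those of Epor 2.29, 1.15 and 2.50. Bcl11a was 0.41 above WT-MPP in FL HSC before scaling and 0.49 below after it (scaled value -0.49), so its direction was not settled. Zbtb7a was 0.78 lower in FL HSC than BM HSC before scaling (difference -0.78) and was called lower after it (-1.16).

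Comparing WT-MPP with the CD11b+CD48+SK cells, the population with enforced Hoxb5, none of the 7 members was called. Of all genes, 19% were called higher in the CD11b+CD48+SK cells and 5.01% lower, and the share of calls upwards went from 79.1% to 44.4% after scaling. As CD11b+CD48+SK cells minus WT-MPP, the difference of mean log2(TPM+1) was 0.33 for Hbb-b1, 0.26 for Hbb-b2, 0.44 for Beta-s, 0.26 for Hba-a2, -0.16 for Bcl11a, -0.22 for Epor and 0.73 for Zbtb7a. All 7 were under 1 in size on this scale, and that of Hbb-b1 was -0.13 after scaling. With log2 of the mean TPM plus 1, Hbb-b2 at 1.41 and Hba-a2 at 2.08 were called higher and Epor at -2.61 lower, so the absence of calls rests on the averaging.

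Among FL HSC, no regulator reached a rho of 0.3 in size with beta-globin. Spearman's rho of each with summed beta-globin over 56 cells was -0.24 for Epor, 0.17 for Bcl11a and -0.05 for Zbtb7a. Over the 9891 genes present in at least 10% of FL HSC, rho had a median of 0.02 and its central 95% ran from -0.26 to 0.28, and 3.07% of genes had a rho of at least 0.3 in size. All 3 regulators lay within that central range, with 3.44% of the genes below Epor, 87.0% below Bcl11a and 31.7% below Zbtb7a. With Pearson's r on log2(TPM+1), the values were -0.25, 0.19 and -0.09. The cells share their population and differ in depth, for which the number of genes present stands here, and that number had a rho of 0.24 with beta-globin. Given the number of genes, the partial rho was -0.21 for Epor, 0.18 for Bcl11a and -0.09 for Zbtb7a.

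Gata1 and Klf1 were in too few FL HSC for a correlation to say more than where those cells lay. The 4 cells with Gata1 had 94.7, 241, 140 and 550 TPM of it and 10079, 8961, 3044 and 2662 TPM of beta-globin, which placed them 6, 7, 31 and 33 from the top of 56. The 2 cells with Klf1 had 21.3 and 33.5 TPM of it and 13766 and 1663 TPM of beta-globin, placed 2 and 38. No FL HSC held both factors. Epor was present in 3 of the 4 cells with Gata1 and in both cells with Klf1, out of 23 FL HSC with Epor. In 50 of 56 FL HSC neither Gata1 nor Klf1 was present. Since every FL HSC held beta-globin, this count says nothing about its level, and a factor not counted as present may have been missed.

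Epor was found at both ends of beta-globin. The lowest 3 FL HSC, cells 5, 42 and 36, had 12.4, 83.3 and 88.6 TPM of beta-globin, and all 3 held Epor, at 190, 195 and 104 TPM. The highest FL HSC held no Epor, but the cells placed 2, 7 and 13 from the top did. Bcl11a was 56.5 TPM in cell 5, 0 in cell 42 and 11.7 TPM in cell 36, against 76.9 TPM in cell 55.

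**Figure D4:**
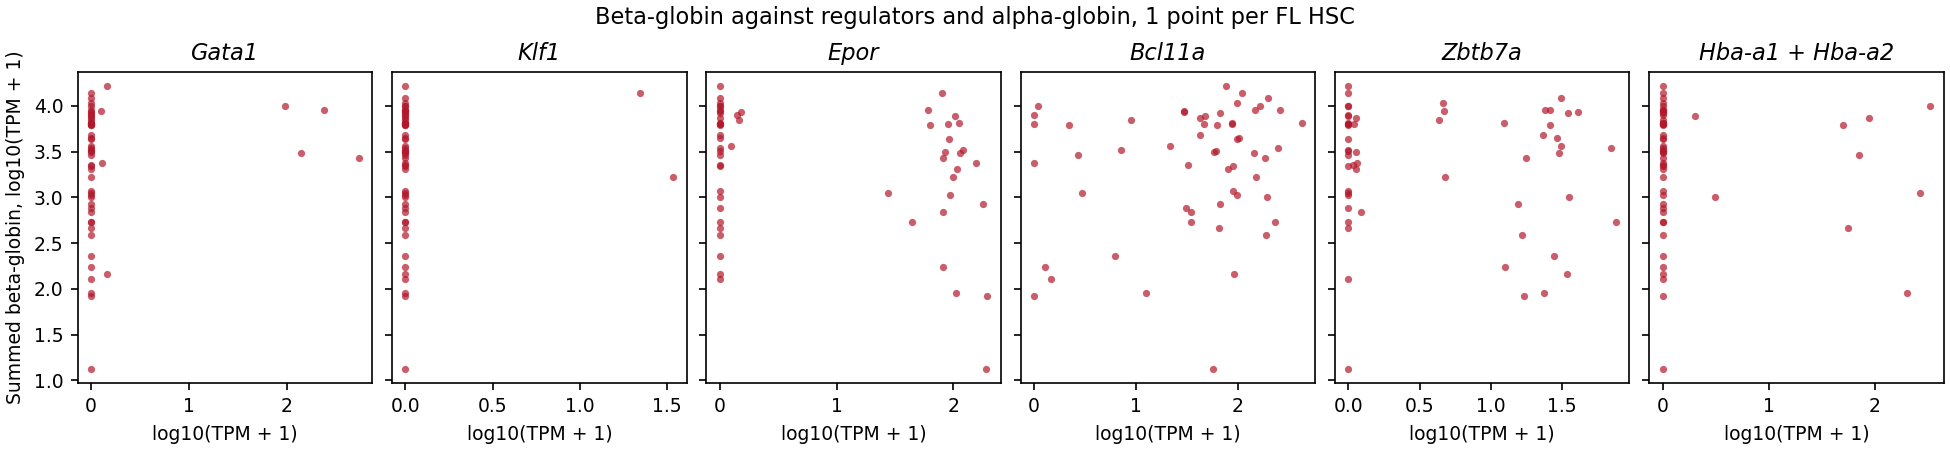
Summed beta-globin against Gata1, Klf1, Epor, Bcl11a, Zbtb7a and summed alpha-globin, all as log10(TPM + 1), with 1 point per FL HSC (n = 56). Beta-globin runs from 12.4 to 13766 TPM in cells with Epor present and from 127 to 16355 TPM in the others (rho -0.24). The 4 cells with Gata1 and the 2 with Klf1 at a TPM of 1 or more are spread from place 2 to place 38 of 56 from the top of beta-globin.

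Outside the members, the 10 genes whose level was most like that of beta-globin over the 56 FL HSC, among 7410 genes present in at least 25% of them, were Fam65b, Pfdn4, Arpp19, Fam53c, Ppm1b, Cirbp, Grap, Phf14, Cdk4 and Pabpc4. Their rho ran from 0.45 for Fam65b and 0.44 for Pfdn4, a prefoldin subunit, down to 0.40 for Pabpc4, a poly(A)-binding protein. None is a globin or a gene of the lists described here, and all were far under the rho of 0.990 or more among the beta-globin genes. The most opposed gene was Ptbp1, a splicing regulator present in all 56, with a rho of -0.49.

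The wider set of globin switching regulators held 32 genes, of which 31 passed the filter. Of these, 13 were higher and 3 lower in FL HSC than WT-MPP, 12 higher and 2 lower than BM HSC, and 8 higher and 1 lower than CD11b+CD48+SK cells, with median differences of 0.47, 0.35 and 0.20 beside 0.56, 0.31 and 0.32 over all genes, of which 33.9%, 25.6% and 20.9% were higher and 3.08%, 5.44% and 4.02% lower. After scaling by the median ratio the counts were 8 higher and 4 lower, 7 higher and 5 lower, and 6 higher and 1 lower. With log2 of the mean TPM plus 1 the balance was gone or turned, with 5 higher and 5 lower, 4 higher and 7 lower, and 4 higher and 1 lower. Igf2bp1, Igf2bp3 and Hmga2, RNA-binding and chromatin proteins of the fetal let-7 pathway, were among the higher ones in all 3 comparisons and under every scaling and averaging run. Igf2bp1 was present in 29 FL HSC and in no cell of the other 3 populations, so its direction could hardly change with the scaling. Hmga2 was present in 46 of 56 FL HSC, 9 of 36 BM HSC, 2 of 41 WT-MPP and 5 of 47 CD11b+CD48+SK cells.

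Lin28b, which blocks let-7, was present in 7 FL HSC, 2 BM HSC and no other cell. Nfia, a nuclear factor I protein linked to the adult globin pattern, went the other way, being present in 1 of 56 FL HSC, 20 of 36 BM HSC, 25 of 41 WT-MPP and 4 of 47 CD11b+CD48+SK cells. Sox6, a partner of Bcl11a, was present in 0 FL HSC, 4 BM HSC, 6 WT-MPP and 2 CD11b+CD48+SK cells. Over FL HSC, 28 genes of the set had a median rho with beta-globin of 0.02. Of them, 1 reached 0.3 in size, Nr2c1 at 0.32 with 7 cells present, beside 3.07% of all genes, so nothing is read from it. Nr2c1 encodes TR2, an orphan nuclear receptor that binds embryonic globin promoters. Igf2bp1, Igf2bp3 and Hmga2 had a rho of -0.04, -0.08 and 0.17.

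Of 14 erythroid transcription factors, 13 were listed and 11 passed the filter. None was higher in FL HSC than WT-MPP or BM HSC, where 1 and 2 were lower, and 1 was higher than in CD11b+CD48+SK cells. Of all genes, 33.9% were higher and 3.08% lower than in WT-MPP, 25.6% higher and 5.44% lower than in BM HSC, and 20.9% higher than in CD11b+CD48+SK cells. Gfi1b, a repressor needed for red cells and platelets, was lower by 1.69 than in WT-MPP and by 3.58 than in BM HSC, with 20 of 56 FL HSC, 29 of 41 WT-MPP and 35 of 36 BM HSC holding it. Gata2, the GATA factor of stem cells, was 1.39 lower than in BM HSC and 1.54 higher than in CD11b+CD48+SK cells. Nfe2, whose product binds the beta-globin locus control region, was present in every cell of all 4 populations, and its rho with beta-globin over FL HSC was 0.01. After scaling by the median ratio, 6 of the 11 were lower than in WT-MPP and 5 lower than in BM HSC. With log2 of the mean TPM plus 1, 2 were lower than in WT-MPP, and 5 were lower and 1, Foxo3, higher than in BM HSC. The median rho of the 11 was 0.02 and none reached 0.3 in size.

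Of 12 genes of erythropoietin signalling, 11 passed the filter, and 6 were higher and 1 lower in FL HSC than WT-MPP, 3 higher and 3 lower than BM HSC, and 4 higher and 1 lower than CD11b+CD48+SK cells. Of all genes, 33.9% were higher and 3.08% lower than in WT-MPP, 25.6% and 5.44% than in BM HSC, and 20.9% and 4.02% than in CD11b+CD48+SK cells. After scaling, the counts were 2 higher and 1 lower, 3 and 4, and 4 and 1. With log2 of the mean TPM plus 1 they turned to 1 higher and 3 lower, 0 and 5, and 3 and 2. Bcl2l1, the survival gene that encodes Bcl-xL, was present in 27 of 56 FL HSC, 10 of 36 BM HSC, 12 of 41 WT-MPP and 5 of 47 CD11b+CD48+SK cells. Cish, a Stat5 target that dampens cytokine signalling, was present in 30 of 36 BM HSC but in 12 of 56 FL HSC, a difference of -4.70. With beta-globin, Bcl2l1 had a rho of 0.28 and Jak2, the kinase bound to the receptor, a rho of -0.34. Jak2 was the single gene of the 11 past 0.3 in size, beside 3.07% of all genes.

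Of 9 genes of haem synthesis, 8 were listed and all 8 passed the filter. In FL HSC, 6 were higher than in WT-MPP and none lower, 5 higher and 1 lower than in BM HSC, and 2 higher than in CD11b+CD48+SK cells, beside 33.9%, 25.6% and 20.9% of all genes higher and 3.08%, 5.44% and 4.02% lower. After scaling by the median ratio these were 3 higher and 1 lower, 4 higher and 2 lower, and 2 higher, and with log2 of the mean TPM plus 1 they were 1 and 1, 1 and 2, and 0 and 1. Urod, an enzyme of the pathway, was present in 51 of 56 FL HSC, 29 of 36 BM HSC, 26 of 41 WT-MPP and 38 of 47 CD11b+CD48+SK cells. Fech, which puts iron into haem, was the one lower than in BM HSC, by 1.24 (difference -1.24). Their rho with beta-globin had a median of 0.08, and none reached 0.3 in size.

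Of 14 genes of iron uptake and storage, 13 passed the filter, and Slc25a38, a mitochondrial glycine carrier, was the single one higher in FL HSC than WT-MPP and BM HSC, beside 33.9% and 25.6% of all genes, and was not called with log2 of the mean TPM plus 1. Slc25a37, the mitochondrial iron importer, was the single one lower than in WT-MPP, with a difference of -1.16, beside 3.08% of all genes. After scaling by the median ratio, 1 was higher and 3 lower than in WT-MPP, and 1 higher and 1 lower than in BM HSC. With log2 of the mean TPM plus 1 these counts were 1 and 3, and 1 and 1. Tfrc, the transferrin receptor, was present in 8 of 56 FL HSC, 4 of 36 BM HSC, 6 of 41 WT-MPP and 7 of 47 CD11b+CD48+SK cells. None of the 12 genes of this set present in at least 10% of FL HSC reached a rho of 0.3 in size.

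**Figure D5:**
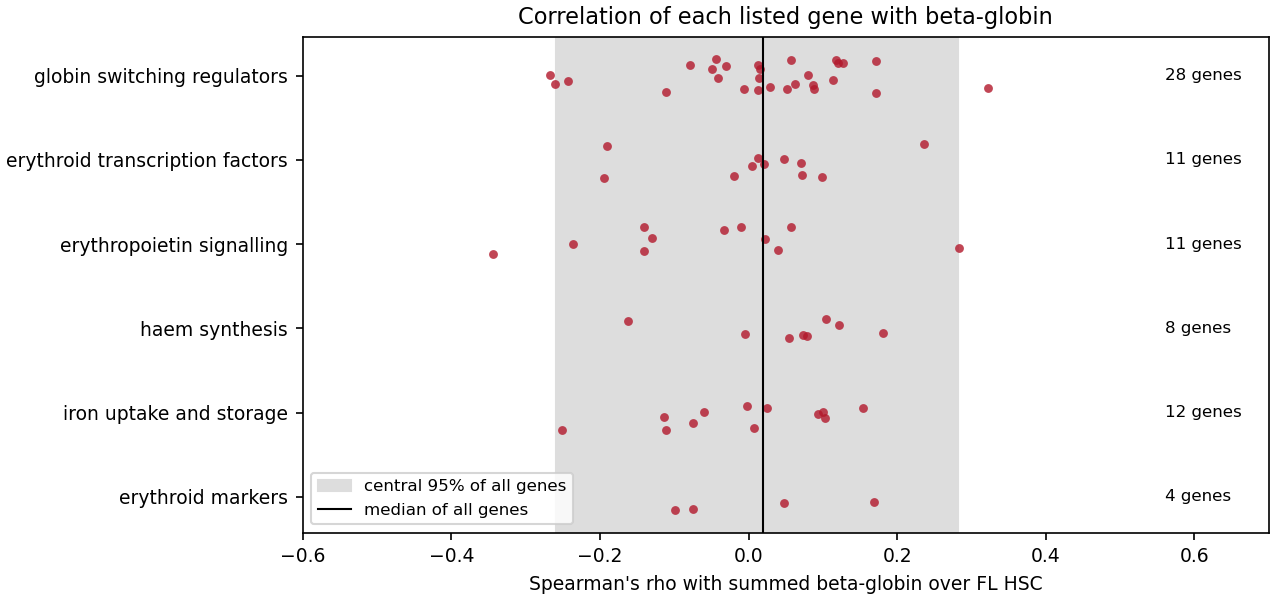
Spearman's rho with summed beta-globin over 56 FL HSC for each gene of 6 lists present in at least 10% of them, with 1 point per gene, the median of all 9891 genes as a line and their central 95% in grey. Of all points, Nr2c1 at 0.32 and Jak2 at -0.34 lie beyond a size of 0.3, as do 3.07% of all genes.

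Few of the listed markers of red cells were present per cell in any population, counted over cells with and without beta-globin. The lineage stain of the WT-MPP and CD11b+CD48+SK sorts included Ter119, which removes red cells and late erythroblasts. Of 21 erythroid markers, 7 were listed (Rhag, Ank1, Hemgn, Tspan33, Aqp1, Trim58 and Icam4), and the other 14, Slc4a1, Ahsp and Alas2 among them, were not analysed here. Of the 7, a FL HSC held a median of 1 and at most 4, and 24 of 56 FL HSC held none. The median was 1 in BM HSC, 0 in WT-MPP and 1 in CD11b+CD48+SK cells. Hemgn, a nuclear protein of erythroid and stem cells, was the most common, in 14 of 56 FL HSC, 13 of 36 BM HSC, 11 of 41 WT-MPP and 16 of 47 CD11b+CD48+SK cells. The summed TPM of the 7 ranged from 0 to 394 in FL HSC with a rho of 0.05 with beta-globin, and from 0 to 849 in BM HSC. The same rho was 0.19 in BM HSC (n = 36), -0.02 in WT-MPP (n = 41) and 0.48 in CD11b+CD48+SK cells (n = 47, of which 28 were at 0 for beta-globin).

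Cells that surround HSC in the fetal liver were looked for in the same way. Of 10 hepatocyte markers, 7 were listed, and their summed TPM ranged from 0 to 524 in FL HSC, 0 to 316 in BM HSC, 0 to 663 in WT-MPP and 0 to 1029 in CD11b+CD48+SK cells. The median sum was 79.1 TPM in FL HSC, 3.42 in BM HSC, 1.10 in WT-MPP and 147 in CD11b+CD48+SK cells. Trf was present in 33 of 56 FL HSC, Afp and Apoa1 in 7 each, Apoa2 in 6 and Rbp4 in 2. The defining Alb was present in 1 of 56 FL HSC and Ahsg was at 0 in all of them. Alb, Apoa2 and Rbp4 were at 0 in every cell of the other 3 populations, while mean Afp was lower in FL HSC than in each of them. Of 10 macrophage markers, 9 were listed, with sums from 209 to 3847 TPM in FL HSC and from 9.20 to 6072 TPM in the other populations. Lyz2 was present in all 56 FL HSC, Cd68 in 29, C1qc in 6, Csf1r in 5 and each other listed marker in at most 3. Csf1r and Mrc1 were at 0 in every cell of the other 3 populations. Cd68 was called higher in FL HSC than WT-MPP, BM HSC and CD11b+CD48+SK cells, by 2.18, 2.33 and 2.78, and also after scaling. Of all genes, 33.9%, 25.6% and 20.9% were called higher before scaling. The rho of the summed markers with beta-globin over FL HSC was -0.21 for hepatocytes and -0.02 for macrophages. Of the 7 stem cell markers, FL HSC held between 3 and 7 with a median of 6, and the sum had a rho of 0.09 with beta-globin. Of 9 megakaryocyte markers, 8 were listed, and FL HSC held a median of 3 with a rho of the sum of 0.20. The rho of the sum was -0.12 for B cell, -0.11 for T cell and -0.04 for mast or basophil markers. The part of other cells in the beta-globin of FL HSC was not tested.

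Depth is known only as genes present, because TPM keep no counts of reads. FL HSC had a median of 5206.5 genes present per cell (range 3974 to 6789), BM HSC 4441.5 (2479 to 5861), WT-MPP 3844 (2615 to 4751) and CD11b+CD48+SK cells 4514 (3039 to 6791). The FL HSC with the lowest beta-globin, cell 5, was also the one with the fewest genes, 3974.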

How the data were processed

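Single cells were sorted, their cDNA was amplified with the Discover-sc WTA Kit V2 and libraries were made with the TruePrep DNA Library Prep Kit V2. The deposited values are TPM, which the authors estimated with StringTie (1.3.4) after HISAT2 (2.1.0) alignment; the submitters' processing notes name mm10. Of 181 columns, 1 that matched no sample was left out. No 2 cells used were identical.

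Values were taken as log2(TPM + 1) with a pseudocount of 1 and averaged over cells (Python 3.11.15, numpy 2.4.6, pandas 2.3.3, scipy 1.17.1; Biopython 1.88 for transcripts). No p-value was computed, since each population is 1 sample. Intervals are exact Clopper-Pearson at 95%, and where no cell held a gene, 3 cells of the total gave the upper limit. Correlations over cells are descriptions. Members and lists were chosen with earlier results of these data known. Named were the members, other globins and the 10 genes most alike in rho. So were listed genes that were called, common or at 0 in FL HSC. Lin28b, Nr2c1, Jak2, Tfrc, Alb, Csf1r, Ptbp1 and the other hepatocyte and macrophage markers in few FL HSC were chosen after their values were seen. Steps were tested on simulated data. Alternatives changed the pseudocount, averaging, scaling, filter, threshold, gene and coefficient. Some items are not reported here.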

Additional observations from a re-analysis of the deposited data

How the results depend on the processing

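Of 125 alternatives over 17 results, 114 left the value within its tolerance (1.5 times for a difference or count, 0.1 for a rho, the interval for a share) and 11 moved it, none reversing a called value. With log2 of the mean TPM plus 1, the beta-globin differences of FL HSC fell to 4.45 against WT-MPP, 4.89 against BM HSC and 4.85 against CD11b+CD48+SK cells, since cells at 0 then weigh less. Counting beta-globin as present at 100 TPM, an alternative chosen after seeing the data, gave 22.2% of BM HSC, 17.1% of WT-MPP and 21.3% of CD11b+CD48+SK cells, and Hbb-b2 alone gave 11.1%, 12.2% and 14.9%. Beta-s alone gave 16.7% of BM HSC. The rho of Klf1 with beta-globin, 0.10 with 2 cells present, became -0.075 without the 2 cells farthest from the median, 1 of which held Klf1. Over all genes, those called higher in FL HSC than WT-MPP numbered 3679, 2076 after scaling by the median ratio and 1607 with log2 of the mean; than BM HSC 2775, 1670 and 1285; and than CD11b+CD48+SK cells 2273, 1765 and 2114. With that averaging, 45.4%, 38.01% and 70.3% of calls were upwards. No paired analysis was possible because no result comes from a test. TPM give no depth in reads, and a gene at 0 may have been missed.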
